A study of Papilio xuthus with 10 samples.

Results

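The pupal genes of both sexes are the genes of the swallowtail butterfly *Papilio xuthus* whose level in both the female pupa and the male pupa stood at least 4-fold above that in every other library of a developmental series. They were chosen on the deposited RPKM values (read numbers scaled to the length of the gene and to the size of the library), with 1 added to each value before ratios were taken. A gene was included when both pupae had an RPKM of 10 or more, when the pupae lay within 4-fold of each other, and when the lower pupa was at least 4 times each of the other 8 libraries. Of 15123 genes in the table, 47 met the rule, or 0.311%. These values chose the genes, so the levels below describe the libraries and test nothing.

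The series covers whole bodies of *P. xuthus* in 10 groups of 1 library each. These are the egg, the 5 larval instars (the stages separated by moults), and pupae and adults of each sex. Per the methods of the study, eggs, 1st-instar and 2nd-instar larvae were pooled, and each later library came from 1 animal. Stock came mainly from butterfly insectariums and in part from larvae collected outdoors, larvae were fed on a rutaceous plant, and no treatment or strain is given. The sources used here do not give the age of the pupae, so the female and the male pupa need not have been of the same age, and sex, age and individual cannot be told apart. Library totals read back from the values lay between 23378656 reads (5th instar) and 35161755 reads (male pupa). Reads at genes came to 76.5 to 98.6% of the total in 6 libraries and to 124 to 154% in instars 2 to 5, where the part of this excess in the levels below was not tested. With 1 library per group no value has a replicate error, and the intervals given are exact 95% intervals of counting error only.

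In the pupa of a moth or butterfly, some larval tissues are broken down, and part of the adult body is built from groups of cells set aside in the larva. Ecdysteroid hormones, released in pulses, and the absence of juvenile hormone direct these steps. New cuticle, wings with scales, compound eyes and flight muscle take their adult form within the pupal case. The table pairs its identifiers with no gene names, and 0 of the 15123 identifiers were found among the 13139 genes that RefSeq lists for assembly Pxut_1.1. The members are therefore described by identifier, level, coding length and pattern, without a function or a sequence, and tissue markers could not be looked up. A whole-body value also cannot tell more cells of a type from more RNA per cell.

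The rule was met in steps that show where candidates were lost. Both pupae reached an RPKM of 10 in 6072 genes, and 6042 of these lay within 4-fold of each other, so the limit between the sexes removed few. The limit of 4 times every other library left 47. Among the other candidates, 46 failed in a single library. The male adult was that library for 21 of them, the female adult for 9, the 3rd instar for 6 and the egg for 4, with 1 or 2 genes each for the 4 other instars. A further 31 genes failed in both adults and in no other library. The adults thus accounted for more of these single failures than the egg and larvae together. An adult was also the highest other library for 56.8% of all 6042 candidates, so this lead was not particular to the single failures.

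When the same rule was put to each of the 45 pairs of libraries, 31 pairs gave 0 genes. The pair of male pupa and male adult gave 230 genes, the egg and 1st instar 176, the female and male adults 55, and the female and male pupae 47. The next pair, the 2nd and 3rd instars, gave 5. The pupal set was therefore the fourth of 4 sets that stood well above the other pairs, and it was close in number to that of the adults.

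In the female pupa the members ranged from an RPKM of 10.5 to 24334 with a median of 133, and in the male pupa from 10.4 to 13038 with a median of 160. The medians of the members in the other libraries were 2.66 in the egg, 3.67, 0.856, 2.67, 2.83 and 3.75 in instars 1 to 5, and 4.07 and 5.22 in the female and male adult. The medians of all genes in these 8 libraries were 3.06 to 9.22, above those of the members in each library, and 7.40 and 7.86 in the female and male pupa. On the log2(RPKM + 1) scale the median gap, from the lower pupa down to the highest other library, was 2.77 (quartiles 2.40 and 3.88), or 6.84-fold. The rule fixed the sign and the minimum of this gap.

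**Figure D1:**
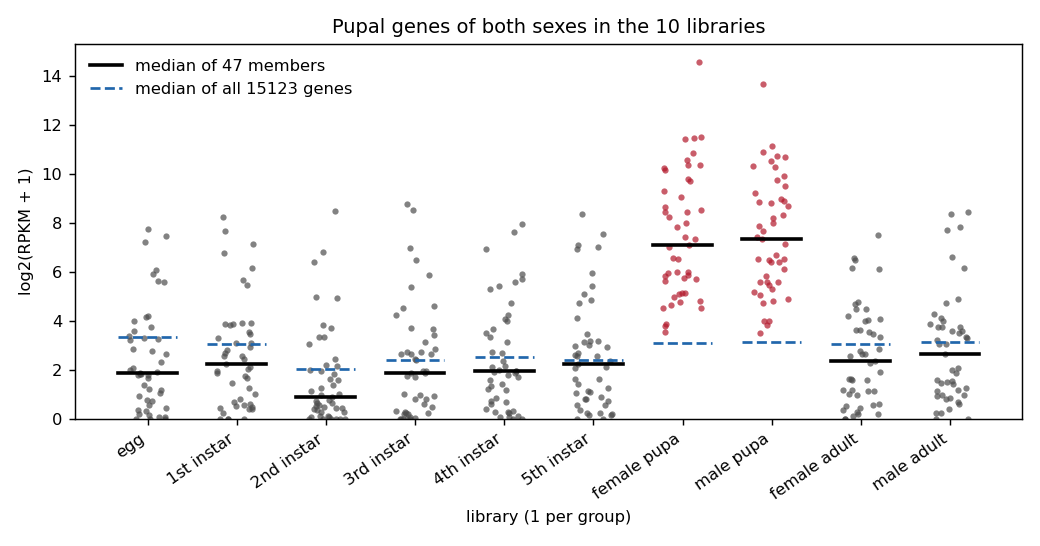
Each point is 1 of the 47 members in 1 library, as log2(RPKM + 1), with red points for the pupae, black bars for the median of the members and dashed blue bars for the median of all 15123 genes. The points of the pupae (lowest RPKM 10.5 and 10.4) sit above most points of the other libraries, and the median of the members is lowest in the 2nd instar (RPKM 0.856).

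A large share of the reads of the set came from 1 gene. The 47 genes took 4.13% of the reads at genes in the female pupa (Wilson 95% interval 4.13 to 4.14%) and 2.95% in the male pupa (2.95 to 2.96%), against 0.0317% (2nd instar) to 0.117% (male adult) elsewhere. A single gene, RR46_02275, held 27.9% of the member reads in the female pupa and 20.6% in the male pupa. In both pupae 8 members reached an RPKM of 1000 and 24 an RPKM of 100, while 20 stayed below 100 in both pupae and 3 passed it in 1 pupa.

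RR46_02275 and RR46_11528 had the highest means over the pupae. RR46_02275, with a coding length of 402 bp, reached 24334 (24250 to 24418) in the female pupa with 13038 (12979 to 13098) in the male pupa, against 149 in the egg, 199, 358, 438, 198 and 134 in instars 1 to 5, and 179 and 328 in the female and male adult, all in RPKM. This gene was thus abundant in every library and had its pupal level on top of that, with the lower pupa 29.8-fold (28.9 to 30.6) above the 3rd instar in plain RPKM. RR46_11528 (705 bp) had RPKM values of 2776 and 2217 in the female and male pupa, against 174 in the egg, 298, 112, 87.3, 51.7 and 323 in instars 1 to 5, and 70.3 and 208 in the female and male adult. It too was present throughout, with its larval values lowest in the 4th instar and highest in the 5th.

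The 2 largest gaps belonged to genes with an RPKM of at most 2.19 in every library outside the pupae. RR46_04345 (2256 bp) had RPKM values of 1314 (1306 to 1323) and 589 (584 to 594) in the female and male pupa, against 2.19 in the egg, 2.19, 0.277, 0.0314, 0.0754 and 0.455 in instars 1 to 5, and 0.442 and 0.582 in the female and male adult. Its 2 reads in the 3rd instar compare with 96507 in the female pupa, and the male pupa stood 268-fold (231 to 313) above the egg. RR46_12191 (498 bp) had RPKM values of 341 (332 to 350) and 204 (197 to 210) in the female and male pupa, against 0.175, 0.142, 0.205 and 0.172 in instars 1, 3, 4 and 5, and 0.515 and 0.964 in the female and male adult. It had 0 reads in the egg and in the 2nd instar, where the intervals reach an RPKM of 0.212 and 0.272. In these 2 genes the pupal values were separated from all the others by at least 104-fold on the RPKM + 1 scale.

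Such low levels outside the pupae were not general. The next largest gap, 72.9-fold in RR46_10819, came with an RPKM of 15.4 in the female adult. Only 2 members, or 4.26%, had an RPKM below 1 in each of the 8 other libraries, a state found in 5.82% of all genes. At the other end, 16 members (34.0%) had an RPKM of 1 or more in each of them, against 53.5% of all genes and 93.6% of the 6042 genes that met the 2 criteria on the pupae alone. The highest value outside the pupae was at most 5 in 15 members (21.4% of all genes) and 100 or more in 6 (15.9% of all genes). A gap of 16-fold or more was found in 11 members, and 28 had a gap under 8-fold. At the ends of the counting intervals, with the lower end in both pupae and the upper end in the other libraries, 39 of the 47 members still cleared 4-fold. The 8 that did not had gaps of at most 4.73-fold.

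The members just inside the 4-fold gap, taken on the RPKM + 1 scale, were RR46_05211 and RR46_13575. RR46_05211 had an RPKM of 13.6 and 42.8 in the female and male pupa and 2.62 in the 1st instar (4.03-fold). RR46_13575 had 403 and 252 and, in the 5th instar, 61.0 (4.09-fold). Just outside were RR46_15075, with 32.3 and 36.7 in the female and male pupa and 7.32 in the egg, and RR46_03069, with 61.0 and 59.9 and 14.3 in the female adult, both at just under 4-fold. The minimum of 10 had RR46_11487 just inside (10.5 and 10.4) and RR46_08000 just outside (8.38 and 7.72), both named after their values were seen. RR46_05211, RR46_13575 and RR46_11487 were among the 8 members that did not clear 4-fold at the ends of their intervals.

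The rule bounded the difference between the sexes at 4-fold, and 43 members lay within 2-fold. On the log2(RPKM + 1) scale the median of male minus female was -0.03, with quartiles of -0.50 and 0.48, and it was -0.03 over all genes and -0.07 over the 6042 genes. The male pupa was higher in 22 members (46.8%), against 44.9% of all genes and 41.6% of the 6042, and the female pupa in 25 (53.2%), against 52.9% and 58.4%. The male pupa was higher by 1 or more in 3 members (7.55% of all genes passed this) and the female pupa in 1 (2.94% of all genes). In absolute size the median difference was 0.51 in the members, 0.28 in all genes and 0.24 in the 6042 genes. The members thus lay evenly about zero, with single genes somewhat farther from equality than genes at large.

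**Figure D2:**
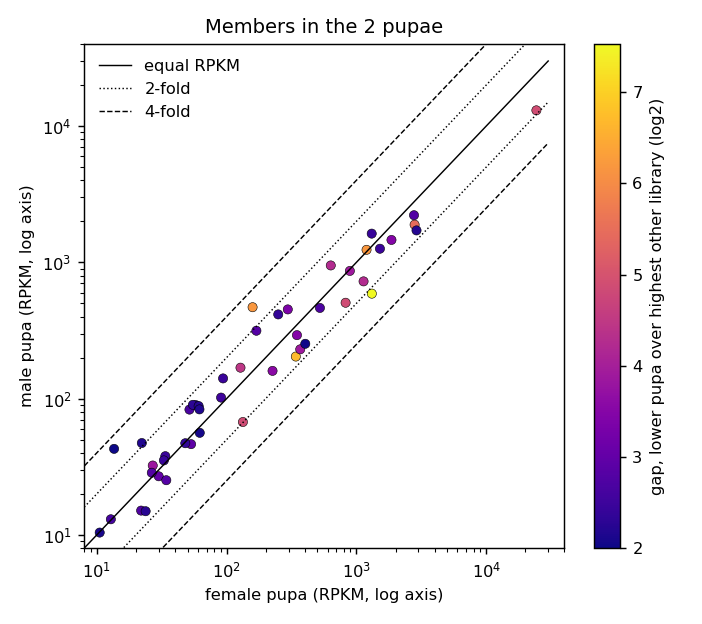
The RPKM of each of the 47 members in the male pupa is plotted against that in the female pupa, both on log axes, with the colour giving the gap to the highest other library in log2 and lines for equal RPKM, 2-fold and 4-fold. The members follow the line of equal RPKM, 43 lie within 2-fold on the RPKM + 1 scale, and the most abundant one (24334 and 13038) lies below it.

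The direction of the difference was also counted by abundance. Of the 24 members at an RPKM of 100 or more in both pupae, 16 (66.7%) were higher in the female pupa, against 50.3% of the 785 genes of that abundance within 4-fold. Of the other 23 members, 9 (39.1%) were higher in the female pupa, against 59.6% of 5257 genes. These counts come from 1 animal of each sex, and their difference was not tested. Among members with a gap of 8-fold or more, 13 of 19 were higher in the female pupa, and 12 of the 28 with a smaller gap. The female pupa was higher in 52.9% of all genes and in 58.4% of the 6042. No share of genes at large split by gap is given, and the difference by gap was not tested either.

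RR46_05211 (432 bp) and RR46_02405 (780 bp) leaned most to the male pupa. RR46_05211, at the lower limit of the gap, had 191 reads in the female pupa and 650 in the male pupa, an RPKM of 13.6 (11.7 to 15.7) and 42.8 (39.6 to 46.2). Elsewhere its RPKM was 2.62 in the 1st instar, 2.45 in the egg, 0.164 in the 3rd instar, and 0.132 and 0.519 in the female and male adult, with 0 reads in instars 2, 4 and 5. RR46_02405 had RPKM values of 158 (154 to 163) and 469 (460 to 477) in the female and male pupa, and at most 1.20 elsewhere, in the female adult. Its 33 reads in the female adult and 16 in the 3rd instar compare with 0 to 4 in each of the remaining libraries.

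RR46_04345, described above for its gap, leaned most to the female pupa, by 2.23-fold. RR46_11021 (429 bp) followed, with RPKM values of 133 (127 to 140) and 67.4 (63.3 to 71.6) in the female and male pupa, against 1.07 in the egg, 1.35, 0.856, 0.744, 0.317 and 1.20 in instars 1 to 5, and 0.465 and 1.19 in the female and male adult. Its intervals in the pupae did not overlap, and outside the pupae it rested on 20 reads or fewer in each library.

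The rule removed genes too high in any other library, and the single failures were mostly in an adult. The shares below are therefore not free of it. Beyond that limit, the order of the other 8 libraries was not set and differed among the members. The highest of them was the male adult for 15 members, the 5th instar for 10, the 3rd instar for 6, the 4th for 5, the egg and the female adult for 4 each, the 1st instar for 3 and the 2nd instar for 0. Either adult was highest for 40.4% of the members, against 52.6% of all genes and 56.8% of the 6042 genes. An instar from the 3rd to the 5th was highest for 44.7%, against 18.4% of all genes and 16.8% of the 6042. The 2 adults went opposite ways. The male adult stood at 31.9% of members, 25.5% of all genes and 15.1% of the 6042. The female adult stood at 8.51%, 27.1% and 41.7%. Any larval instar was highest for 51.1% of members, 32.6% of all genes and 28.7% of the 6042. Without the male adult among the libraries the rule gave 68 genes, and an adult was then the highest other library for 22.1% of them. Only the female adult could count there, and no share of all genes is given, so this value is not comparable with the 40.4%. With libraries scaled to the same upper quartile, an adult was highest for 30.0% of the 40 genes that met the rule and for 42.0% of all genes, and an instar from the 3rd to the 5th for 55.0% and 29.0%. At the same sum an adult was highest for 50% of 64 genes and 61.8% of all genes, and these instars for 31.2% and 8.95%. With the 2 adults pooled, the set thus stood below all genes in the adult share under each scaling. In the share of these instars it stood above all genes under each. As deposited, the male adult alone stood above all genes.

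**Figure D3:**
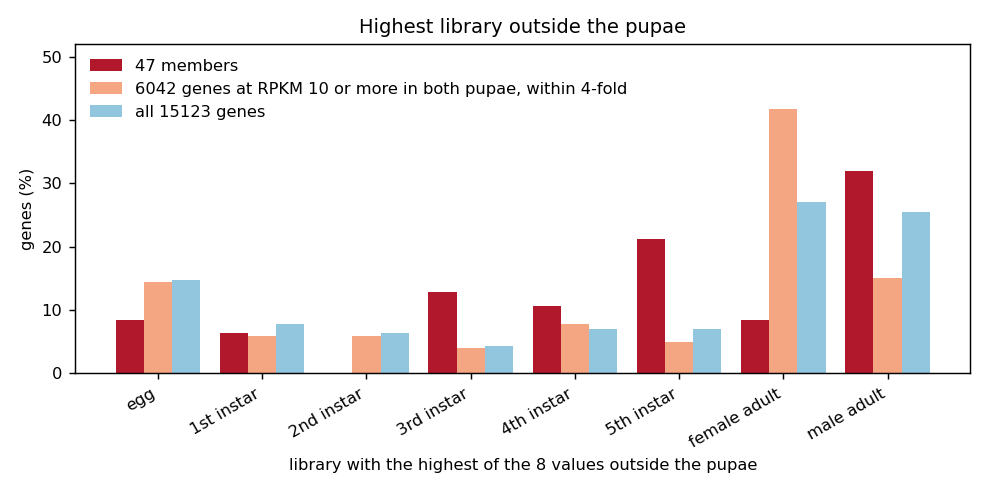
Bars give the percentage of genes whose highest value outside the pupae lay in each of the 8 other libraries, for the 47 members, for the 6042 genes whose RPKM was at least 10 in both pupae, within 4-fold, and for all 15123 genes. The bars of the members stand above both others in the 3rd, 4th and 5th instars and the male adult (12.8, 10.6, 21.3 and 31.9%) and are lowest in the 2nd instar (0%) and then the 1st (6.38%).

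RR46_06806 and RR46_10819 both had pupal levels far above their highest other library. RR46_06806 (1359 bp), the most abundant of the members with the 4th instar next, had RPKM values of 2806 and 1889 in the female and male pupa, against 2.55 in the egg, 3.12, 2.89, 2.90, 41.5 and 3.15 in instars 1 to 5, and 24.5 and 7.30 in the female and male adult. Its value of 41.5 (39.5 to 43.5) in the single 4th-instar animal lay above all other larval values, which were 3.15 or less. RR46_10819 (729 bp), with the female adult next, had RPKM values of 1196 and 1235 in the female and male pupa, against 10.9 in the egg, 10.6, 2.92, 5.30, 2.85 and 6.69 in instars 1 to 5, and 15.4 and 0.790 in the female and male adult. The pupae were equal to within 1.03-fold in this gene.

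RR46_02915 (561 bp), the most abundant member with the male adult next, had a pattern of early and late expression. Its RPKM was 1517 in the female pupa and 1258 in the male pupa, against 214 in the egg and 138, 0.393, 0, 25.2 and 1.07 in instars 1 to 5, with 94.4 and 228 in the female and male adult. It was thus high in the egg and the 1st instar, had 6, 0 and 14 reads in instars 2, 3 and 5 and returned in the pupa, and the 4th instar stood between. The lower pupa was 5.52-fold (5.34 to 5.71) above the male adult.

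Within the larval series the 2nd instar was the low point of the set. It had the lowest of the 8 values, ties included, in 21 members (44.7%), against 37.3% of all genes. Only 22 members (46.8%) had an RPKM of 1 or more there, against 67.5% of all genes, while 32 (68.1%) did in the 1st instar, against 78.5%. The median of all genes was lowest in the 2nd instar too. In the other libraries outside the pupae the members at an RPKM of 1 or more numbered 33 in the egg (79.1% of all genes), 28 in the 3rd instar (70.3%), 33 in the 4th (72.2%), 33 in the 5th (71.2%), and 34 (73.6%) and 35 (82.2%) in the female and male adult. The share of members was thus 59.6 to 74.5% in these 6 libraries, below that of all genes in each. The step from the 1st to the 2nd instar took 8 members down by 2 or more in log2(RPKM + 1), where 14.1% of all genes fell as far, and took 0 up, where 2.18% rose. The share that fell, 17.0%, was near the background.

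From the 2nd to the 3rd instar 6 members were higher by 2 or more in log2(RPKM + 1) (3.23% of all genes) and 1 was lower (2.72%). In the 4th instar 4 were higher than in the 3rd (3.07%) and 1 was lower (3.46%), and in the 5th instar 5 were higher than in the 4th (3.54%) and 4 were lower (1.14%). A rise towards the last instar was not general. The 5th instar and the pupae were separated, on the same scale, by a median of 4.21 in the female and 4.31 in the male, against 0.55 and 0.58 over all genes. All 47 members passed 2 in this contrast by the rule, as did 13.3% of all genes in the female pupa and 15.9% in the male pupa. A difference of 5 or more was found in 18 members in the female pupa (0.423% of all genes) and in 20 in the male pupa (1.02%). The rule used this contrast, so these numbers too follow in part from the choice of members.

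**Figure D4:**
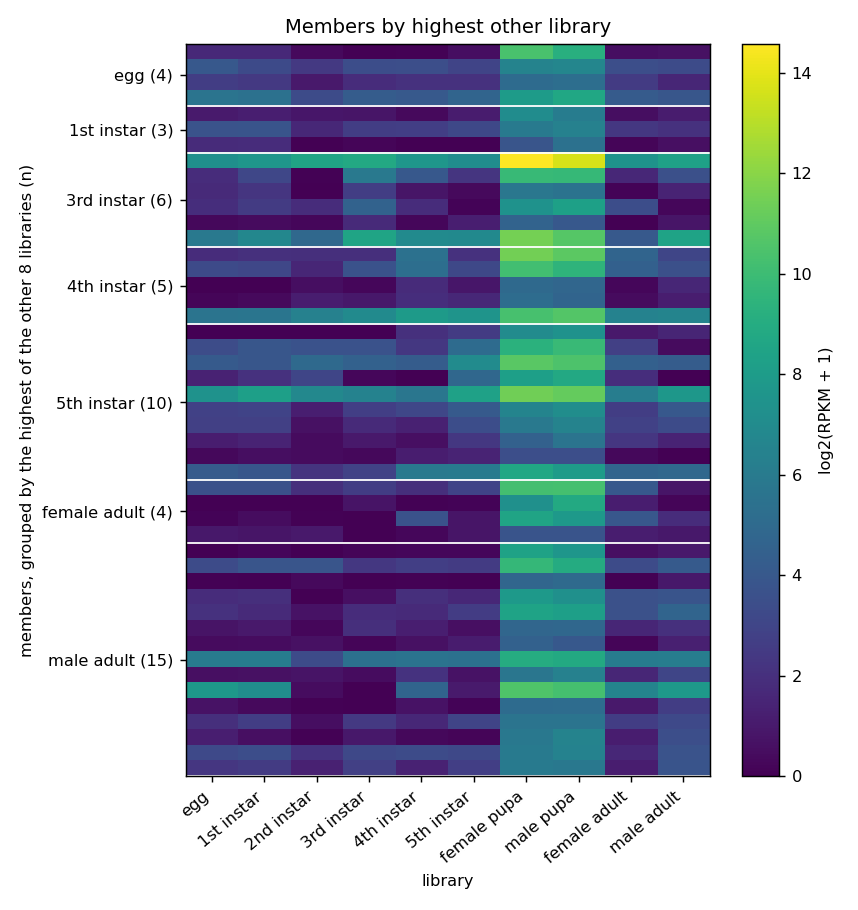
Each row is 1 of the 47 members and each column 1 of the 10 libraries, coloured by log2(RPKM + 1), with rows grouped by the highest of the 8 libraries outside the pupae (number of members in brackets) and ordered by gap within a group. Both pupal columns are brightest in each row. The groups were put in the order of the columns, with 4 members for the egg and 3 for the 1st instar. The 3rd to 5th instars hold 21 members, the female adult 4 and the male adult 15.

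Levels fell from pupa to adult in every member, which the rule required. The median fall in log2(RPKM + 1) was 4.63 between female pupa and female adult and 3.70 between male pupa and male adult, against medians of -0.02 and 0.14 over all genes. All 47 passed 2 by the rule, as did 5.31% of all genes in females and 4.87% in males. The fall was 5 or more in 17 members in females (0.562% of all genes) and in 14 in males (0.291%). Choosing members on this contrast raised these numbers too, so they are no separate result. Both adults had an RPKM of 1 or more in 28 members (59.6%), against 69.4% of all genes and 98.1% of the 6042, and below 1 in 6 (12.8%), against 13.5% and 0.53%, while the remaining members were split between the adults.

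The difference between the sexes was wider in adults, where the rule put no limit on it, with an absolute median of 0.91 in the members. That median was 0.96 in all genes and 1.08 in the 6042 genes, so the wider difference was not particular to the members. The male adult was higher by 2 or more in log2(RPKM + 1) in 4 members (10.3% of all genes) and the female adult in 4 (8.87% of all genes), so the share in each direction, 8.51%, was near the background. The median of male minus female was 0.43, against 0.04 over all genes and -0.56 over the 6042 genes, and 31 of 47 members (66.0%) were higher in the male adult, against 51.3% of all genes and 35.9% of the 6042. The sign was the same in pupae and adults in 16 members (34.0%), against 52.8% of all genes and 53.0% of the 6042. A difference of 1 or more in opposite directions in the 2 stages was found in 0 members, against 1.32% of all genes and 0.662% of the 6042.

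**Figure D5:**
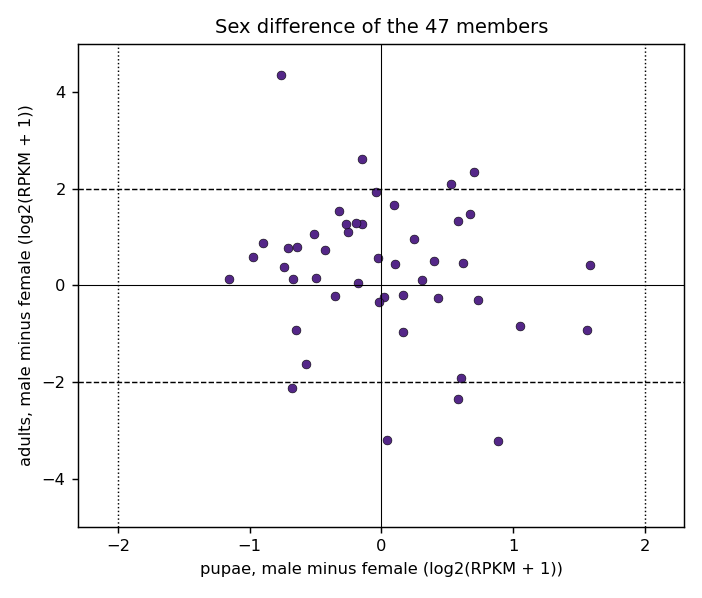
Each point is 1 of the 47 members, with male minus female in log2(RPKM + 1) in pupae on the horizontal axis and in adults on the vertical axis. Dotted lines mark the limit of 2 that the rule set in pupae and dashed lines the same size in adults, which 4 members pass in each direction.

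RR46_12194 (699 bp) leaned most to the male adult. Its RPKM was 2902 and 1715 in the female and male pupa, against 59.2 in the egg, 108, 29.2, 369, 122 and 121 in instars 1 to 5, and 15.9 (14.4 to 17.6) and 347 (339 to 355) in the female and male adult. Adults thus differed by 20.6-fold on the RPKM + 1 scale, with the male higher, while the female pupa was the higher pupa. On the RPKM + 1 scale RR46_14412 (1554 bp) was 6.13-fold higher in the male adult. Its RPKM was 1.21 and 12.5 in the female and male adult. It was near equal in the pupae, at 62.1 in the female and 56.1 in the male. In the egg and larvae it had an RPKM of 1.56 to 5.68.

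RR46_04096 (345 bp) leaned most to the female adult, by 9.34-fold on the RPKM + 1 scale, and did so from a higher value in the male pupa. Its RPKM was 170 (162 to 177) and 315 (305 to 325) in the female and male pupa, against 2.74 in the egg, 4.88, 2.55, 23.2, 2.66 and 0.124 in instars 1 to 5, and 10.1 and 0.186 in the female and male adult. The male adult had 2 reads and the 5th instar 1. RR46_10819, given above, was 9.18-fold higher in the female adult on the RPKM + 1 scale, with equal pupae.

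Some members had neighbouring identifier numbers, a property that the rule did not use. In 4 runs, 10 of the 47 members had another member within 3 numbers, or 21.3%. Among the genes that the same rule gave for other pairs, it was 7 of 55 (12.7%) for the adults. It was 71 of 230 (30.9%) for the male pupa and male adult, and 82 of 176 (46.6%) for the egg and 1st instar. These sets differ in size, and no share for genes at large is given. The members of a run stood next to each other in the table. Whether the numbers follow the order of genes along the genome is not given in the sources used here. The longest runs were RR46_11485 to RR46_11487 and RR46_12191, RR46_12192 and RR46_12194, named after their values were seen. The first run was of low level, with an RPKM of 34.3 and 25.2, 30.0 and 26.9, and 10.5 and 10.4 in the female and male pupa. In each of its 3 genes the highest other value was that of the 4th or the 5th instar, at 1.68 to 2.73.

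The second run was of high level and mixed restriction. RR46_12192 (1050 bp) had an RPKM of 890 and 865 in the female and male pupa and 57.7 in the 3rd instar, its highest other value, while RR46_12191 had 0.142 and RR46_12194 had 369 in that library. Of the 3 genes, RR46_12191 was thus below an RPKM of 1 in each library outside the pupae, and the other two shared the 3rd instar as next. RR46_12190, the number before the run and not a member, also named after its values were seen, had RPKM values of 230 and 48.1 in the female and male pupa, with 135 in the 3rd instar. Over all 81 genes that were not members and whose number lay directly beside one, 6 (7.41%) had a gap of 1 or more in log2 and 11 (13.6%) a gap above 0, against 1.21% and 11.0% of all genes.

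None of the 47 members belonged to the 8 sets of near-identical copies, 33 genes of equal length with reads within 2% or 3 reads of each other in every library, in the table. Reads shared between less alike genes, among them neighbours in a run, cannot be told apart here. Coding lengths of the members, the smallest that the values allow, were 204 to 3996 bp with a median of 729 bp (quartiles 489 and 1352 bp), against 1002 bp over all genes and 1062 bp over the 6042 genes. Each was a multiple of 3. The median length was thus below that of genes at large, and the lowest read number behind a pupal value was 148 in the female and 158 in the male pupa.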

How the data were processed

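The authors extracted total RNA from whole bodies, selected poly-A RNA, primed cDNA with random hexamers and sequenced both ends on an Illumina instrument. The submitters' processing notes name TopHat 1.0.12 and 1.4.1 without a role. The use of strand and the treatment of multiple hits are not given in the sources used here. The deposited values are RPKM in 1 table of 10 columns, mapped to samples by title. RPKM does not correct for library composition, so a few very abundant genes lower the rest. The members and lists were chosen with earlier results of these data known. Genes to name were fixed by rule: the 2 members with the highest pupal mean, with the largest gap and with the largest difference between the sexes in each direction, in pupae and in adults, the most abundant member per highest other library, and the 2 genes on either side of the gap limit. Others are said to be chosen later.

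Whole reads, lengths and library totals were solved from the ratios of RPKM, and 100% of genes came out whole (within 1e-06 of the value). The scale was the smallest common one, at which 99.9% of lengths were multiples of 3. The reads served depth and exact Clopper-Pearson intervals only, and Wilson intervals were used for shares. Both cover counting error only. No count model and no test was run, with 1 library per group. The steps were tested on simulated data. Alternatives covered the pseudocount, fold, minimum, limit between pupae, scaling, copies and each library. Python 3.11.15, numpy 2.4.6, pandas 2.3.3, scipy 1.17.1 and matplotlib 3.10.9 were used.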

Additional observations from a re-analysis of the deposited data

How the results depend on the processing

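Of 78 values under alternative settings, for 4 results (the number of members, the median gap, the median male minus female difference in pupae and the share with an adult next), 69 stayed within their limits and 9 did not. The limits were 1.5-fold for the number and 95% binomial intervals for the others. No member was in a set of copies, so that setting could change nothing. Leaving out a library outside the pupae could only add genes. The tally therefore includes values that could not move, or could move in 1 direction only. The number was 31 with a pseudocount of 5, 130 at a 2-fold and 19 at an 8-fold limit, which admit more or fewer genes by construction. The median gap was then 1.60 at 2-fold and 4.23 at 8-fold, and the median sex difference -0.35 at 8-fold. That difference was near zero, and its sign changed at 2-fold (0.003) and without the 3rd instar (0.02).

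With each library left out in turn, the rule took 48 to 93 genes. The largest numbers came without the female pupa (93) and without the male pupa (82), when the rule read 1 pupa. The share with an adult next ranged from 22.1% (without the male adult, where only the female adult could count) to 49.5%. With libraries at the same upper quartile it was 30.0%, and at the same sum 50%. The median gap ranged from 2.68 to 2.79, and the median sex difference from -0.03 to 0.02. At the same upper quartile 40 genes met the rule, of which 38 were among the 47, and at the same sum 64 did, the 47 included. These scalings moved the median of pupae minus another library, over 13055 genes, by -0.57 to 0.20 and by -0.30 to 0.86 in log2(RPKM + 1). The causes were not tested. No paired analysis was possible because each group has 1 library.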

Other observations

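Genes that passed the 4-fold rule over the 8 other libraries in only 1 pupa, or in both at unequal levels, surround the set described above. The female pupa passed it in 82 genes and the male pupa in 93, and both did in 50. The female pupa alone passed in 32 genes, and the male pupa was below an RPKM of 10 in 14 of them. The male pupa alone passed in 43, and the female pupa was below an RPKM of 10 in 26. The 3 genes that passed in both pupae but lay over 4-fold apart were all higher in the female pupa and at an RPKM of at most 2.10 elsewhere. RR46_05656 and RR46_00342, chosen after their values were seen, are the widest and the narrowest of them. RR46_05656 had RPKM values of 1235 and 34.7 in the female and male pupa, and at most 1.05 elsewhere, in the female adult. RR46_00342 had 1607 and 300 and at most 2.10 elsewhere, in the 1st instar. With 1 animal per sex and no age given, sex, age and individual cannot be told apart in these genes.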
